A study of Mus musculus with 24 samples.

Results

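Wild type colonocytes (WT CO) were compared with wild type absorptive enterocytes of the small intestine (WT AE) by mRNA-seq of sorted mouse epithelium. The comparison took every gene of the 4 deposited tables once and kept those whose log2 value reached 0 in WT CO, in WT AE or in both, which left 81 of 82 genes. The remaining gene, Khdc1a, was below that minimum in both groups. The tables list only genes that the authors called changed by deletion of Smarcad1, a chromatin remodeller, in at least 1 cell type, so the 81 genes are not a sample of the transcriptome.

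WT CO and WT AE each comprised 3 libraries from wild type mice of the strain C57BL/6 Lgr5-GFP. The 6 libraries of the matching KO groups came from mice of the same strain in which Smarcad1 was deleted by Villin-cre. Cre of this transgene acts in intestinal epithelium and removes loxP-flanked exons. The conditional allele was kept as a line derived from a single targeted ES cell clone. The age of the animals was not given in the sources used here. Both cell types were sorted as Epcam-positive cells without CD31 and CD45, with 100000 cells per AE sample and 75000 to 100000 per CO sample. AE cells came from villi and were dispersed by pipetting alone, whereas CO cells came from colon crypts and were dispersed with dispase, collagenase and DNase. Region of the gut, position in crypt or villus and digestion therefore cannot be told apart in this comparison. Wild type small intestinal stem cells (ISC, high GFP from the Lgr5 reporter) and transit amplifying cells (TA, medium GFP) are set beside both. They had 3 libraries each and were digested crypt cells. Unlike AE and CO, they were sorted by GFP without antibody staining, so without selection by Epcam, CD31 or CD45. Cell numbers per sample were 1000 to 80000 for ISC and 1000 to 135000 for TA.

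Each deposited value is the authors' mean of 3 libraries on the log2 scale, for reads normalised to total reads and not to gene length. Values of single libraries were not analysed here, so no SD, no interval and no test between CO and AE could be had, and library depth is not known. All differences below are descriptions of group means. In such bulk samples, fewer cells of a type and less RNA per cell cannot be told apart.

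Absorptive enterocytes of the villus digest and take up sugars, amino acids and lipids across a brush border of microvilli, and package dietary lipid into lipoproteins. Colonocytes absorb mainly water and salts, live beside a far denser microbiota and lie in a mucosa without villi. Colon crypts also hold dividing and goblet cells, while Paneth cells, which secrete antimicrobial proteins, sit at the base of small intestinal crypts. The label of each group could be checked only weakly, because few defining markers were among the listed genes. Of 19 small intestine markers 1 was listed, Apob, and it was high in AE. Of 17 colon markers 0 were listed, so the identity of the CO libraries could not be checked by them. Of 7 goblet cell genes, Spink4 was listed, and of the Paneth cell genes Lyz1 and Itln1 were.

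Across the 81 genes, 31 were higher in AE by at least 1 on the log2 scale, which is 38.3%, and 24 were higher in CO, which is 29.6%. A difference of 1 on this scale is a 2-fold difference. The remaining 26 genes differed by less than 1, and 12 of them by less than 0.5. Differences were often large, with a median absolute value of 1.76 on the log2 scale, and 10 genes were higher in AE and 9 higher in CO by at least 4. The median difference, CO minus AE, was -0.30, with quartiles of -2.17 and 1.42. The median levels of the groups were 5.31 in WT CO and 5.81 in WT AE. When each group was centred on its own median, 31 genes were higher in CO and 28 in AE, so the share of CO among the genes past 1 went from 43.6% to 52.5%. The balance between the directions thus depended on the scaling. Centring changed the sign of 7 genes, each of which differed by less than 0.5 (Abcc5, Rtn4r, Slc25a20, Mep1a, Tnip1, Slc9a2 and Cyp2s1).

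**Figure D1:**
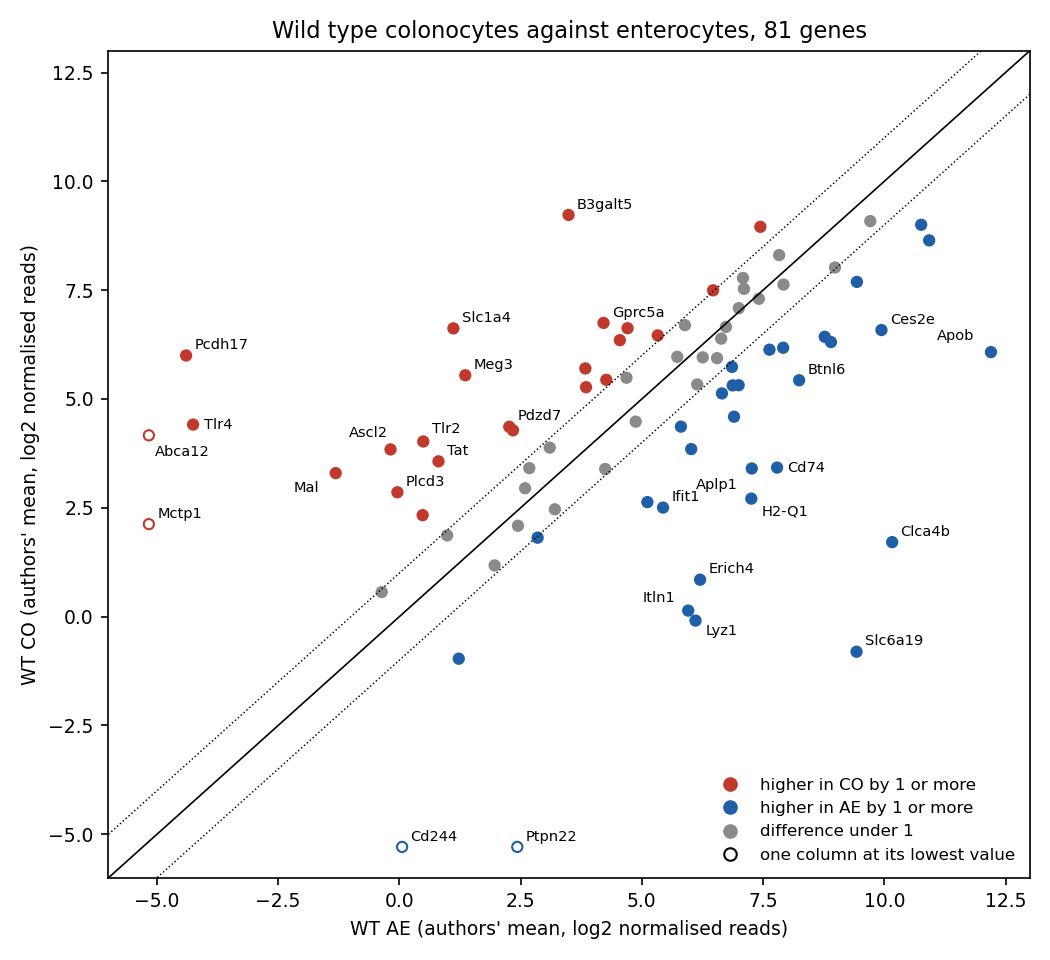
Log2 values of the 81 genes in WT AE (horizontal axis) and WT CO (vertical axis), each point being the authors' mean of 3 libraries. The solid line marks equal values, the dotted lines a difference of 1, and open points mark genes with WT CO or WT AE at its lowest value. Points far from the line lie on both sides, with Slc6a19 at 9.43 in AE against -0.81 in CO and Pcdh17 at 6.00 in CO against -4.40 in AE.

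Upstream sequences are shown for 4 genes that carried the contrast, the pair with the largest difference in each direction among genes whose RefSeq start coincided with the start in the deposited tables and which were at the lowest value in neither group. Pcdh17 (chr14:84443313-84443562, plus strand) and B3galt5 (chr16:96235551-96235800, plus strand) were higher in CO. Clca4b (chr3:144932530-144932779, minus strand) and Lyz1 (chr10:117292869-117293118, minus strand) were higher in AE. Each run gives the 250 bases before the RefSeq start nearest the deposited one, 5′ to 3′ on the strand of the gene, on GRCm38.p6. B3galt5 had 3 RefSeq windows and the other genes 1 each, and the start in use in these cells was not measured. Capitals mark CpG dinucleotides.
Pcdh17: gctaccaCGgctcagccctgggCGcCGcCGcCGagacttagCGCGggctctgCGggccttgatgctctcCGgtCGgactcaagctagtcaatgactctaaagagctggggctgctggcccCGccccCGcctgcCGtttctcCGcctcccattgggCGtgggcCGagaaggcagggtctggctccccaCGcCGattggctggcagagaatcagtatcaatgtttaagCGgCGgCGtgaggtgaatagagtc
B3galt5: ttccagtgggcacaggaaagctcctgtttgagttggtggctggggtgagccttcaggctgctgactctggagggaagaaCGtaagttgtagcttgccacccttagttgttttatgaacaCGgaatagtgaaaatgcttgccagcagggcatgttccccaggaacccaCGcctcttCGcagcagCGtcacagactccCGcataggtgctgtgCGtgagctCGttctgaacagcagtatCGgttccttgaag
Clca4b: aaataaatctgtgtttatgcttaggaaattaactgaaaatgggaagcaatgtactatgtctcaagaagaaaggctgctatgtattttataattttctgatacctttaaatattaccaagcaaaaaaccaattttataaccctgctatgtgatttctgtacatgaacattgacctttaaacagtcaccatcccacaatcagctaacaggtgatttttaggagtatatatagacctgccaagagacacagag
Lyz1: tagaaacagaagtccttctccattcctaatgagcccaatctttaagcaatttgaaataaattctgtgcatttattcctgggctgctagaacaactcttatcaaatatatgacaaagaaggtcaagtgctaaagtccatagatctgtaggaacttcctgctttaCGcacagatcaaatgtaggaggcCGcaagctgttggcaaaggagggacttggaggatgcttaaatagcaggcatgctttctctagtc

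The Pcdh17 window held 21 CpG and 64.8% G and C, and that of B3galt5 held 9 CpG and 54.0%. The window of Lyz1 held 2 CpG and 41.2% G and C, and that of Clca4b held 0 CpG and 33.2%. Base composition of the other genes is compared further below.

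Genes of absorption and lipid handling were among those with the largest differences toward AE. Slc6a19 (ENSMUSG00000021565, chromosome 13 from 73679745 to 73704865), the main brush border transporter of neutral amino acids, was at 9.43 in WT AE and -0.81 in WT CO, a difference of -10.23 or 1205-fold. That size rests on a low CO value, and the difference was -8.78 with a pseudocount of 1. In the small intestinal crypt Slc6a19 lay between CO and AE, with 2.94 in ISC and 4.48 in TA. Apob (chromosome 12 from 7977648 to 8016835), the structural protein of chylomicrons, had 12.20 in AE against 6.08 in CO, a difference of -6.12 or 69.7-fold. Apob was the small intestine marker among the listed genes, and its level in CO was below that in ISC and TA, at 8.32 and 8.35. Clca4b (chromosome 3 from 144910921 to 144932529), of the chloride channel accessory family, had 10.16 in AE and 1.71 in CO, a difference of -8.45. Of its 50-base words, 24.8% also occur in another gene, most often Clca4a, so its reads may be shared between the paralogs.

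Among all 9 membrane transporters measured, 3 were higher in AE and 2 higher in CO, beside 38.3% and 29.6% of all 81 genes. The other 4 differed by less than 1, and the median difference of the 9 was -0.39. Toward AE were Slc6a19, Slco2a1 (a prostaglandin transporter, 6.90 against 4.59) and Slc16a5 (of the monocarboxylate transporter family, 7.0 against 5.32). Toward CO were Slc1a4 and Abca12. Slc1a4 (chromosome 11 from 20302180 to 20332713), an exchanger of neutral amino acids, had 6.62 in CO against 1.11 in AE, a difference of 5.51 or 45.5-fold. Both Slc6a19 and Slc1a4 carry neutral amino acids, and they stood on opposite sides of the comparison. The transporters Slc1a3, Abcc5, Slc25a20 and Slc9a2 had differences between -0.79 and -0.11.

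Enzymes of detoxification and fatty acid oxidation lay on both sides. Of 7 measured, 4 were higher in AE, beside 38.3% of all 81 genes, 1 was higher in CO and 2 differed by less than 1, with a median of -1.50 against -0.30 over all 81 genes. Ces2e, a carboxylesterase, had 9.94 in AE and 6.58 in CO. The cytochrome P450 Cyp2c65 had 7.91 and 6.18, and Dhrs11, a short-chain dehydrogenase, had 7.63 and 6.13. Cyp2c65 shares 20.6% of its 50-base words with other genes, most with Cyp2c66. Gsta3, a glutathione S-transferase, went the other way with 4.28 in CO and 2.34 in AE. Cyp2s1 was nearly equal, at 6.66 in CO and 6.73 in AE, and it and Slc25a20 changed sign on centring.

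Genes of the apical membrane were divided between the regions. Of 7 measured, 3 were higher in AE and 2 higher in CO, beside 38.3% and 29.6% of all 81 genes. Another 2 were within 1, and the median of the 7 was -0.29. Cdhr2, a protocadherin that links the tips of microvilli, had 10.93 in AE and 8.64 in CO, a difference of -2.28. Clic5, a protein tied to the actin cytoskeleton of microvilli, had 8.77 and 6.43. The protease Mep1a and the sodium/proton exchanger Slc9a2 had differences of -0.29 and -0.11. Mal (chromosome 2 from 127633226 to 127656695), a membrane protein of apical transport, had 3.30 in CO and -1.31 in AE, and its difference was 4.61, or 2.95 with a pseudocount of 1. Pdzd7, a PDZ domain protein known from the stereocilia of hair cells, had 4.36 in CO and 2.27 in AE, and its exons overlap those of Lzts2 on the opposite strand.

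The Paneth cell genes were low in CO and higher in AE, and highest in the small intestinal crypt. Lyz1 (chromosome 10 from 117287797 to 117292868), the lysozyme of Paneth cells, had 6.11 in AE and -0.091 in CO, a difference of -6.20 or 73.4-fold. Itln1 (chromosome 1 from 171518122 to 171535294), a lectin that binds microbial glycans, had 5.96 in AE and 0.14 in CO, a difference of -5.82. With a pseudocount of 1 these differences were -5.17 and -4.91. In the small intestinal crypt fractions both were higher than in AE, with 9.69 in ISC and 9.12 in TA for Lyz1 and 8.97 and 8.75 for Itln1. AE was therefore intermediate for both genes and CO the lowest of the 4 wild type populations. Of the 50-base words of Lyz1, 16.1% occur in other genes, chiefly Lyz2. Spink4, a product of goblet cells, had 8.95 in CO and 7.44 in AE, and 9.14 in TA. These values describe genes of other cell types within the sorted fractions, and their part in the other differences was not tested.

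Immune genes lay on both sides of the comparison. The antigen presentation genes, of which 2 were measured, were both higher in AE, beside 38.3% of all 81 genes. H2-Q1, of the class I family, had 7.26 in AE and 2.71 in CO, and Cd74, the invariant chain of class II molecules, had 7.79 and 3.42, differences of -4.55 and -4.36. H2-Q1 shares 15.0% of its 50-base words with other genes, most with H2-K1. Cd74 was also high in the crypt, at 8.67 in ISC and 7.37 in TA, whereas H2-Q1 was low there, at 1.86 and 2.59. Btnl6, a butyrophilin-like gene of the epithelium, had 8.24 in AE and 5.43 in CO, and Sectm1b had 8.90 and 6.31.

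Of the listed toll-like receptors, Tlr4 and Tlr2 were both higher in CO. Tlr4 (chromosome 4 from 66827584 to 66930284), the receptor for lipopolysaccharide, had 4.41 in CO and -4.25 in AE, -2.42 in ISC and -4.57 in TA. Its AE value lies within 1 of the lowest value in that group, so that the difference of 8.67 rests on an AE value near the bottom of its column, and it was 4.40 with a pseudocount of 1. Tlr2, the receptor for bacterial lipoproteins, had 4.02 in CO and 0.49 in AE, a difference of 3.53, or 2.84 with a pseudocount of 1, although ISC and TA were at 3.40 and 2.93. Its 3 crypt populations, of the colon and of the small intestine, thus lay between 2.93 and 4.02, above the villus value.

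Of the 8 innate sensing and interferon genes measured, 4 were higher in CO, beside 29.6% of all 81 genes. A further 2 were higher in AE, beside 38.3% of all, and 2 differed by less than 1. The median of the 8 was 0.59. Besides Tlr4 and Tlr2, those toward CO were Apobec3, a cytidine deaminase that restricts retroviruses (5.70 against 3.84), and Slfn4, of the Schlafen family (5.27 against 3.85). Those toward AE were the interferon-induced Ifit1 (5.44 in AE against 2.51 in CO) and the transcription factor Irf7 (6.87 against 5.31). The exons of Irf7 overlap Phrf1 on the opposite strand. Rsad2, an antiviral protein, and Tnip1, a regulator of NF-κB, had differences of -0.74 and -0.25.

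The lymphocyte list had 2 measured genes of 16. Ptpn22, a phosphatase of lymphocytes, had 2.43 in AE and stood at the lowest value of the column, -5.29, in CO. Cd244, a receptor of natural killer and T cells, had 0.057 in AE and was at the same lowest value in CO. With a pseudocount of 1, Cd244 no longer differed by 1, at -0.99. No fold is given against a group at its lowest value. In KO CO both were again at the lowest value of their column, -5.33, while KO AE had 3.59 for Ptpn22 and -1.44 for Cd244. The sort excluded CD45-positive cells, the other genes of the lymphocyte list were not listed, and the part of such cells in the AE values was not tested.

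The largest difference toward CO belonged to an adhesion gene. Pcdh17 (chromosome 14 from 84443563 to 84537060), a protocadherin whose upstream bases are shown above, had 6.00 in CO and -4.40 in AE, with -4.45 in ISC and -2.92 in TA. The difference of 10.40 rests on an AE value within 1 of the lowest in that group, and with a pseudocount of 1 it was 5.96. The gene was thus above its small intestinal values by at least 8 in CO, the one colonic population measured. Of the 5 basement membrane and adhesion genes measured, 2 were higher in CO and 2 higher in AE, beside 29.6% and 38.3% of all 81 genes, and 1 was within 1. The chains of laminin-332, a basement membrane protein, were divided, with Lamb3 at 6.63 in CO and 4.71 in AE and Lama3 at 3.85 in CO and 6.02 in AE. Lamb3 was 6.27 in ISC, close to CO, but 4.30 in TA, below AE, whereas Lama3 was 0.60 in ISC and 0.26 in TA. Lama3 overlaps exons of Gm29200 on the opposite strand.

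B3galt5 (chromosome 16 from 96235801 to 96319859), a galactosyltransferase that builds glycan chains, stood far above the small intestine in CO. It was at 9.23 in CO, 3.49 in AE, 3.36 in TA and 1.09 in ISC, and CO exceeded AE by 5.74 or 53.4-fold. All 3 small intestinal values lay more than 5 below the colon. Levels of different genes were compared per kb of exon. On that log2 scale B3galt5 was at 6.61 in CO, among the 5 highest of the 81 genes together with Spink4 (10.02), Nudt4 (6.62), Cdhr2 (6.60) and Mt1 (6.14). In AE the 5 highest levels per kb were those of Cdhr2 (8.88), Clca4b (8.58), Spink4 (8.51), Ces2e (8.51) and Apob (8.4). Cdhr2 and Spink4 were among the 5 highest in both groups.

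Ascl2 (chromosome 7 from 142966829 to 142969264), a transcription factor of intestinal stem cells, had 3.84 in CO and -0.18 in AE, a difference of 4.02, or 3.03 with a pseudocount of 1. In the small intestinal crypt it was higher than in either, at 6.05 in ISC and 4.24 in TA. Of the 3 stem cell and Wnt genes measured, Ascl2 was higher in CO and the other two were within 1, with Fzd5, a Wnt receptor, at 7.53 in CO and 7.11 in AE and Bambi, an inhibitor of TGF-β signalling, at 2.95 and 2.59. Markers of stem cells such as Lgr5 and Olfm4 were not listed. The order ISC, TA, CO and AE of Ascl2 follows crypt position as well as region, and these cannot be told apart here.

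Several genes best known from nervous tissue were measured, and 4 of 9 were higher in CO, beside 29.6% of all 81 genes. Toward AE was 1, beside 38.3% of all, and 4 were within 1. The median of the 9 was 0.087. All 9 names of this list were among the listed genes, so its counts do not describe a category drawn up independently of them. Meg3 (chromosome 12 from 109541001 to 109571726), an imprinted long non-coding RNA, had 5.55 in CO and 1.36 in AE, a difference of 4.19, and stood at the lowest value of its column in ISC. Meg3 shares 10.4% of its 50-base words with Gm26906 and other genes. Mctp1, a membrane protein with C2 domains, had 2.13 in CO and was at the lowest value, -5.17, in AE. Aplp1, of the amyloid precursor family, went the other way with 7.27 in AE and 3.40 in CO, a difference of -3.86. Pmp22, a myelin protein, was equal within 0.1 at 7.09 in CO and 7.0 in AE, while ISC had 0.95 and TA -1.56. Pmp22 was thus lower in both small intestinal crypt fractions than in AE and CO.

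The remaining genes high in CO were of mixed function. Abca12 (chromosome 1 from 71242276 to 71414910), a lipid transporter known from the epidermis, had 4.17 in CO and was at the lowest value of the AE column, and its ISC and TA values were -4.23 and -5.40. Gprc5a, a receptor induced by retinoic acid, had 6.75 in CO and 4.21 in AE. Tat, the tyrosine aminotransferase, had 3.57 and 0.81, and Plcd3, a phospholipase C, had 2.86 and -0.040. Mt1, a metallothionein that binds zinc and copper, had 6.46 in CO and 5.33 in AE, and its difference of 1.13 was near the limit. The transcription factor Sox12 had 2.33 and 0.48, and the regulator Trim24 had 6.35 and 4.55.

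Smarcad1 itself (chromosome 6 from 65042583 to 65116061) was higher in WT CO than in WT AE, at 5.44 against 4.27, a difference of 1.17 or 2.26-fold. The small intestinal crypt fractions were near the colon value, with 5.62 in ISC and 5.36 in TA, so that AE was the lowest of the 4 populations. In KO the values were 4.57 in CO and 3.67 in AE, and the difference was 0.91. The KO values include any transcript that lacks only the deleted exons.

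The remaining genes high in AE included some of little known function. Erich4, a gene for a protein rich in glutamate, had 6.20 in AE and 0.85 in CO, a difference of -5.35 or 40.9-fold, and of -4.74 with a pseudocount of 1. Tmem140, a membrane protein, had 5.11 and 2.63, and 35.9% of its 50-base words occur in another gene, chiefly Cyren on the opposite strand. Myo15b, a myosin relative, had 10.76 and 9.0. Nt5e, the ecto-enzyme CD73 that forms adenosine, had 5.81 and 4.37, and the GTPase Rhoc had 6.86 and 5.74. After centring, Nt5e and Rhoc no longer differed by 1, and neither did AY036118, whose 50-base words all occur in other genes.

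The 5 genes nearest to equality were Cyp2s1, Pmp22, Slc9a2, Hsd17b2 and Tnip1. Their differences lay between -0.25 for Tnip1 and 0.24 for Hsd17b2, an enzyme that inactivates sex steroids. The small intestinal crypt values of these genes varied. Hsd17b2 had 5.97 in CO and 5.73 in AE but 2.18 in ISC. Tnip1 had 6.39 in CO and 6.64 in AE beside 5.95 and 5.83 in ISC and TA, and so differed by less than 1 over the 4 populations.

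**Figure D2:**
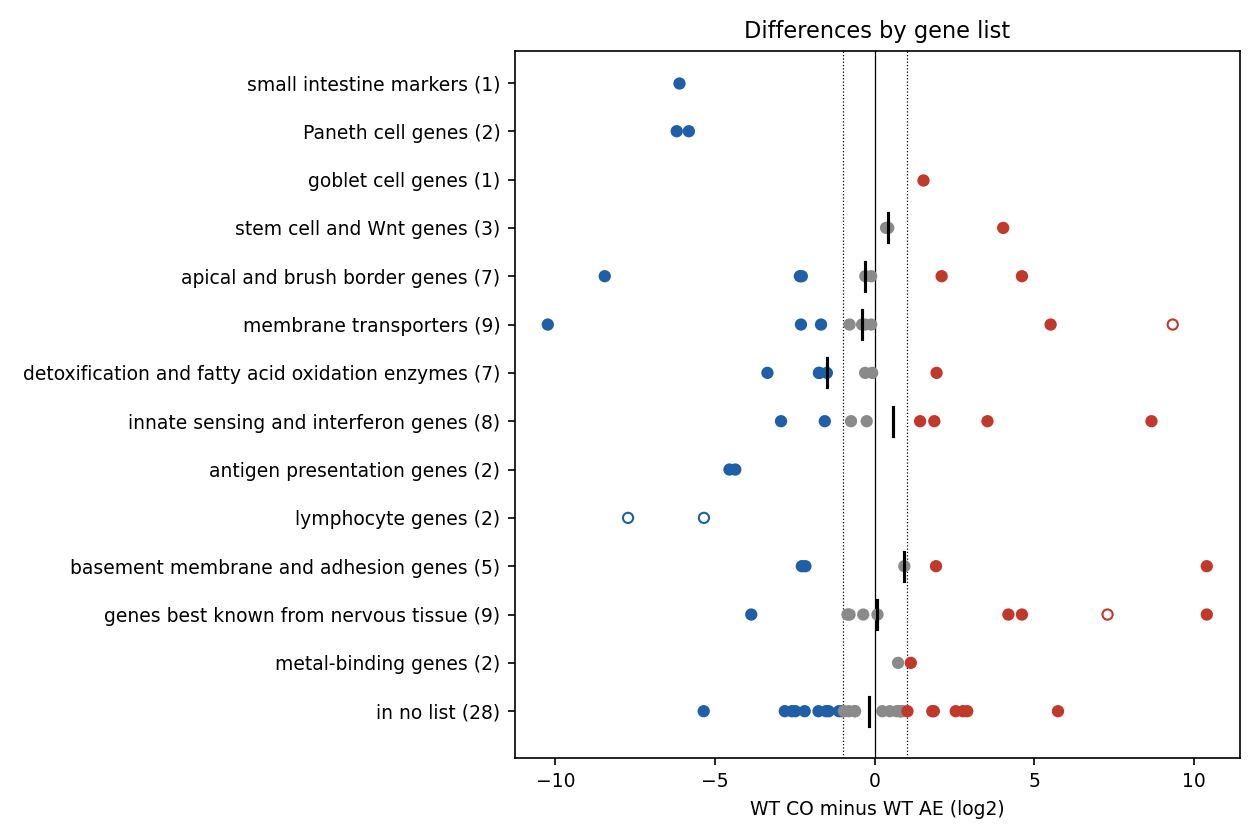
Difference WT CO minus WT AE (horizontal axis, log2) of each gene by list, with the number of genes compared in brackets. Black bars are medians of lists with at least 3 genes, dotted lines mark a difference of 1, red points were higher in CO and blue points higher in AE by at least 1, and open points had one group at its lowest value. The Paneth cell, antigen presentation and lymphocyte genes, only 2 in each list, lie on the AE side alone, as does the small intestine marker Apob. Those of the goblet cell, stem cell and Wnt, and metal-binding lists lie on the CO side alone. Transporters span -10.23 for Slc6a19 to 5.51 for Slc1a4 beside the open point of Abca12.

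Since AE came from villi and CO from crypts, each gene was next set beside the wild type crypt fractions of the small intestine. These comparisons share the WT CO and WT AE libraries with the first, so they describe the same values. Over the 81 genes the highest of the 4 wild type values was in AE for 39, in CO for 27, in ISC for 11 and in TA for 4. Of the 24 genes higher in CO, 14 were also at least 1 above both ISC and TA. These 14 were Slfn4, Gsta3, Pdzd7, Gprc5a, Tat, Plcd3, Meg3, Mal, Slc1a4, B3galt5, Mctp1, Tlr4, Abca12 and Pcdh17. By contrast, 6 genes higher in CO than in AE were lower in CO than in ISC or TA, namely Smarcad1, Spink4, Trim24, Sox12, Apobec3 and Ascl2. The first set thus exceeded every small intestinal fraction measured, and the second set did not. ISC and TA were sorted without the antibody staining used for CO, so region, kind of crypt cell and sort cannot be told apart here.

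Among the 31 genes higher in AE, 24 were at least 1 above both ISC and TA. Their CO values fell on either side of the small intestinal crypt. For 11 genes CO was below both ISC and TA, and these included Slc6a19, Clca4b, Lyz1, Apob, Itln1, Erich4 and Cd74. For 16 genes CO was above both, among them Cdhr2, Clic5, Myo15b, Slc16a5, Nt5e, Ifit1, Irf7 and H2-Q1. For Cdhr2 the order was 7.55 in ISC, 7.95 in TA, 8.64 in CO and 10.93 in AE. For Apob the order began with CO at 6.08 and went on with ISC at 8.32, TA at 8.35 and AE at 12.20.

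**Figure D3:**
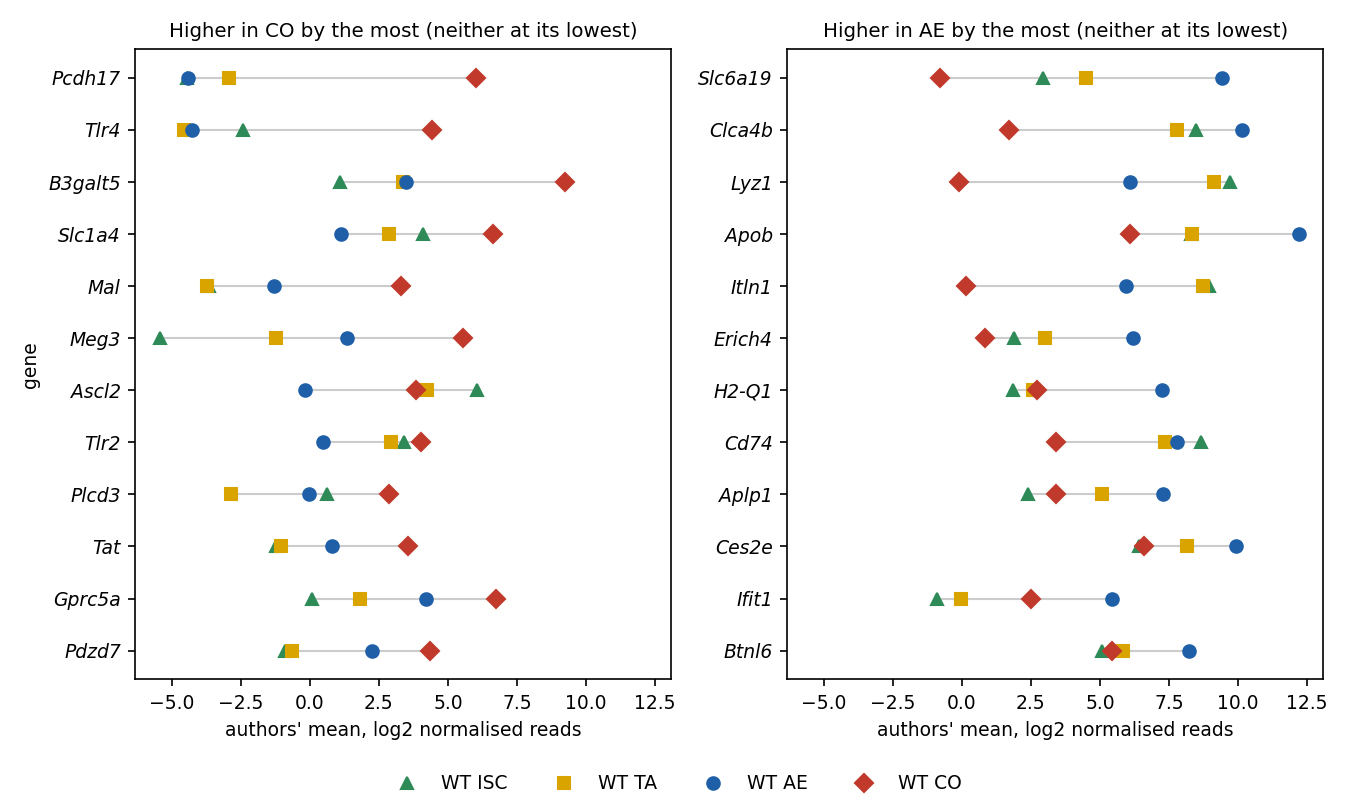
Log2 values in the 4 wild type populations for the 12 genes with the largest differences toward CO (left) and toward AE (right), leaving out genes with WT CO or WT AE at its lowest value. Symbols are the authors' means of 3 libraries, and grey lines join the lowest and highest. For Ascl2 the CO value of 3.84 lies beside TA at 4.24, whereas for Pcdh17 and B3galt5 CO stands alone on the right, and for Lyz1 and Itln1 both crypt fractions lie above AE.

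The same contrast was then taken in the KO libraries, which the wild type contrast did not use. In KO, 41 of 81 genes were higher in AE by at least 1, which is 50.6%, and 22 were higher in CO, which is 27.2%. The sign was the same in both genotypes for 73 genes and opposite for 8. All 31 genes higher in AE in WT were also higher in AE in KO, 30 of them by at least 1, and the median difference of this set was -2.48 in WT and -3.65 in KO. Of the 24 genes higher in CO in WT, 22 kept the sign in KO and 18 reached 1, with medians of 2.65 and 2.04. Across the 81 genes the WT and KO differences had a Pearson correlation of 0.94 and a Spearman correlation of 0.95, as a description over genes, which are not independent replicates. Most listed genes thus had the same regional order in both genotypes, although each is listed for a change with the deletion.

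Individual genes kept large gaps in both genotypes. Slc6a19 had -10.23 in WT and -7.74 in KO, its CO value being 1.62 in KO. B3galt5 had 5.74 and 5.08, Slc1a4 5.51 and 4.69, and Ascl2 4.02 and 5.16. Pcdh17 had 4.48 in KO CO, while KO AE was at the lowest value of its column, -5.13. Lyz1 had -6.20 and -5.11, with 8.21 in KO AE and 3.11 in KO CO. Other gaps changed more with genotype. Mal went from 4.61 in WT to 1.35 in KO and Pdzd7 from 2.1 to 0.093, each with a lower CO value in KO. Erich4 went from -5.35 to -8.67, H2-Q1 from -4.55 to -7.96 and Aplp1 from -3.86 to -1.53. Over the 81 genes the median absolute change of the gap between genotypes was 1.00.

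The 8 genes whose sign differed between genotypes were Slc1a3, Pmp22, Hsd17b2, Fzd5, Pgap1, Bglap3, Mt1 and Slfn4. Of these, Mt1 and Slfn4 were past 1 in WT, at 1.13 and 1.42, and had -0.093 and -0.38 in KO. Mt1 had 8.47 in KO CO and 8.56 in KO AE, both above WT. Slc1a3, a glutamate transporter, had 1.18 in WT CO and 1.96 in WT AE, against 2.12 and 0.68 in KO. Of the 26 genes within 1 in WT, 15 reached 1 in KO, 11 toward AE and 4 toward CO. Rsad2 was one of them, at -0.74 in WT and -2.93 in KO, and Bambi another, at 0.36 and 2.40.

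**Figure D4:**
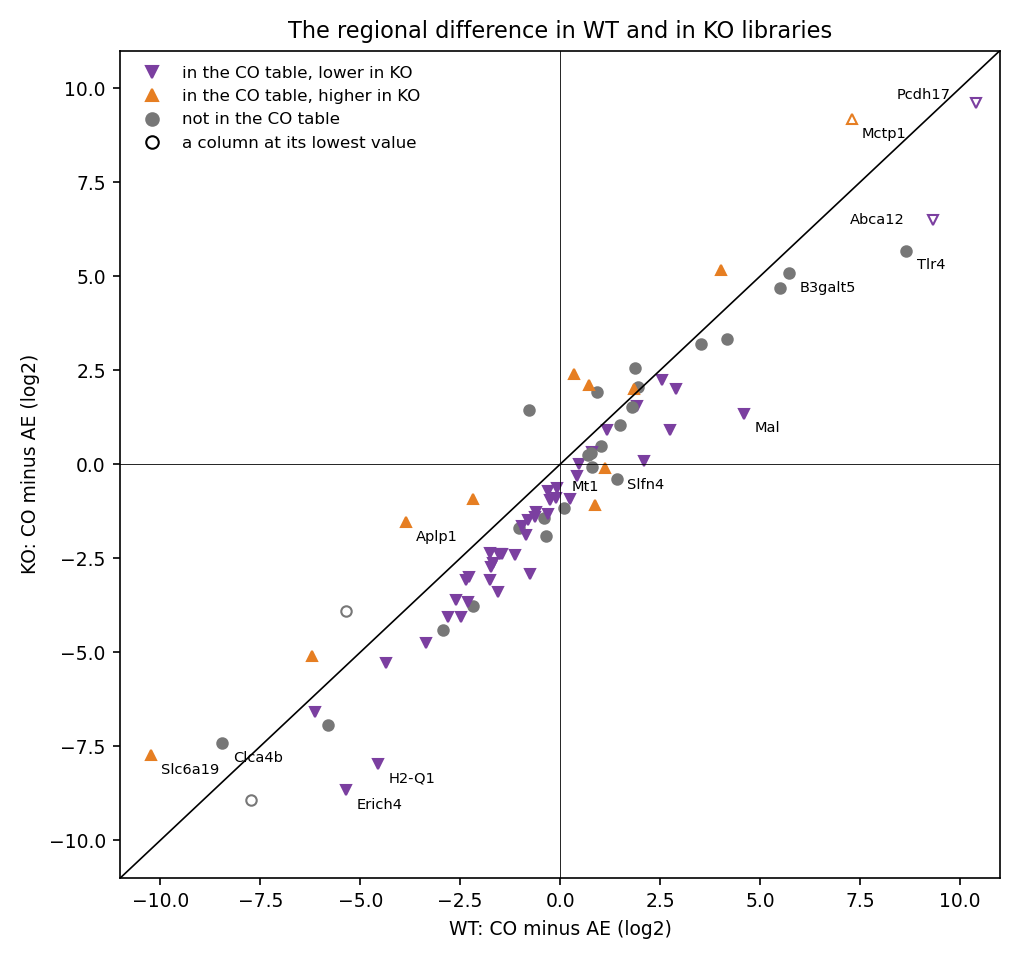
Difference CO minus AE (log2) in WT (horizontal axis) and KO (vertical axis) for the 81 genes, with equality as the solid line. Purple and orange triangles are genes that the CO table lists as lower or higher in KO, grey circles are genes listed only for other cell types, and open symbols have a WT or KO value at the lowest of its column. Points follow the line in both directions, and 73 of 81 have the same sign on both axes.

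How genes came to be listed bore on these counts. The CO table held 55 of the 81 genes, 44 of them lower in KO, and the WT CO libraries were among those that chose them. Of these 44, 20 were higher in AE and 9 higher in CO in WT, with medians of -0.83 in WT and -1.76 in KO. A lower CO value in KO is what the listing selected, so the shift of these genes toward AE in KO is fixed by the choice. The 11 genes of the CO table that were higher in KO had medians of 0.73 in WT and -0.093 in KO. The 20 genes of the AE table had 6 toward CO and 7 toward AE, with medians of 0.39 and -1.0. Of these, 17 were higher in KO AE, with medians of 0.78 in WT and -0.38 in KO, and 3 were lower. A higher AE value in KO is what the listing of the 17 selected, so the shift of their median toward AE is not independent of the choice. The 11 genes listed for neither CO nor AE were listed for ISC or TA. Their absence from the CO and AE listings drew on the libraries compared here, so their choice was not independent of them. Of these 11, 6 were toward CO and 3 toward AE, with medians of 1.87 in WT and 2.07 in KO. The direction of the WT median therefore differed with the listing.

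The upstream windows of the members were described by their CpG content, in the 250 bases before the RefSeq start. A window was matched for 20 of the 24 genes higher in CO and for 22 of the 31 higher in AE. Not every window lay at the deposited start of its gene, as 5 of the first and 6 of the second were more than 100 bp from it, and the farthest, that of Mctp1, was 195062 bp away. The median was 10.5 CpG for genes higher in CO (quartiles 3 and 17.25), 3.5 for genes higher in AE (2 and 10.75) and 12.5 for 20 of the 26 genes within 1. Over all 32851 windows of the table the median was 6, with quartiles of 2 and 16. Of the genes higher in AE, 14 windows or 63.6% held 5 CpG or fewer, against 7 or 35.0% of the genes higher in CO and 49.6% of all windows. With only windows within 100 bp of the deposited start, a choice made after seeing the data, the medians were 13 CpG for 15 genes higher in CO, 3.5 for 16 higher in AE and 10 for 16 within 1. These windows overlap in their range, no test was made, and no reading of methylation or of chromatin was used here. Clca4b, Itln1 and Btnl6 at 0, 0 and 1 CpG were among the AE genes with few, while 6 of the 22, or 27.3%, held 10 or more, among them Dhrs11 at 27 and Aplp1 at 20. Among the CO genes Pcdh17, Ascl2 and Plcd3 had 21, 19 and 18, while Slfn4 and Tat had 3 each.

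Sequence motifs of gut transcription factors were rare over all windows, so their counts in the few windows searched here say little about these genes. Each was searched on both strands in 300 bases, from 250 before to 50 after the start, for the 12 genes with the largest differences and the genes at a lowest value, of which 12 toward CO and 10 toward AE had a window. The GATA motif AGATAAG was in 0 of 12 and 0 of 10, against 3.04% of all windows, and the HNF1 motif GTTAATNAT in 0 of both, against 0.801% of all. The HNF4 motif CAAAGTCCA was in the window of Ptpn22 alone and the CDX motif TTTATGG in that of Itln1 alone, against 0.475% and 2.75% of all windows. The TATA motif TATAAA was in 1 of 12 windows toward CO (Meg3) and 3 of 10 toward AE (Clca4b, Apob and Ptpn22), against 13.6% of all. Of these windows 9 toward CO and 9 toward AE lay within 100 bp of the deposited start, and they held all the matches. Counted from the RefSeq start, the TATA match of Apob lay at -60 and that of Ptpn22 at 16, past the start. The TATA matches of Clca4b lay farther upstream than that of Apob and read on the opposite strand. Those of Meg3 lay upstream and nearer the start than that of Apob. The counts for this motif thus do not compare matches at a set position or strand. A match is no evidence of binding, and the absence of these letters says nothing of sites elsewhere.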

How the data were processed

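mRNA-seq libraries were made from poly(A) RNA of sorted cells with a directional kit and 15 PCR cycles, and were sequenced as single reads of 50 bp. The authors trimmed reads with Trim Galore 0.4.4, aligned them to GRCm38 with HISAT2 2.1.0 and kept uniquely mapped reads, per the submitters' processing notes and the study's methods. The authors quantified exons of merged transcripts in SeqMonk and ran DESeq2, KO against WT within each cell type. The study's methods do not state whether strand was used, so genes overlapping on the opposite strand are uncertain.

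The deposited tables hold 1 log2 value per gene and group, normalised by the authors to total reads. Whether values were averaged over the 3 libraries on the linear or the log scale is not given in the sources used here. They hold 8 groups for genes with an FDR below 0.1. The FDR is the adjusted p-value of the authors' own comparison of KO against WT. It determined which genes were listed, and its values were not used further. The unit was taken from the headers and methods.

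Here the tables were joined by gene name, with identical values wherever a gene recurred. WT CO minus WT AE was computed for genes at 0 or above in either group, and an absolute difference of 1 was counted. No test could be made on group means, no value per library was analysed, and the precision is unknown since the depth is. The genes and the 15 lists were chosen with earlier results of these data known. Named were Smarcad1, the 12 largest differences in each direction, genes with the other group at its lowest value, the 5 nearest to 0 and list members past 1, which gave 49 genes, of which 1 is not reported here. Other names were chosen after their values were seen. Exon lengths, overlaps and shared 50-base words came from GENCODE M21, and upstream sequences from RefSeq on GRCm38.p6. Python 3.11.15, numpy 2.4.6 and pandas 2.3.3 were used, and the counting was tested on simulated data. Alternatives were other minimum values and differences, a pseudocount of 1, values raised to at least 0.1, described features only, genes of no CO or AE table, KO libraries and centred columns.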

Additional observations from a re-analysis of the deposited data

How the results depend on the processing

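The numbers of genes higher in CO and in AE were 24 and 31, and the median difference was -0.30. A difference of at least 2 left 14 genes higher in CO and 21 higher in AE. Genes listed in no CO or AE table gave 6 higher in CO, 3 higher in AE and a median of 1.87. The KO libraries gave a median of -1.07, and centring gave 0.20. Without a minimum value the counts were 25 and 31, with a minimum of 2 they were 24 and 29, at a difference of 0.5 they were 31 and 38, with a pseudocount of 1 they were 24 and 29, and in these settings, values raised to at least 0.1 and described features no count moved by 1.5 times. Of the genes named that differed by at least 1 in WT, Mt1 and Slfn4 reversed in the KO libraries, at -0.093 and -0.38, and Pmp22 and Hsd17b2, within 1 in WT, also changed sign. A pseudocount of 1 moved 25 of 49 named genes by at least 0.1, and values raised to 0.1 moved 6. The cause was not tested.

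No paired analysis was possible because the tables hold group means and no value per library, and leaving out a replicate was not possible for the same reason. Depth is unknown, so differences between low values, such as Tlr4 and Pcdh17 in AE, carry the least certainty.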

Other observations

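Khdc1a, left out for its low values, had -3.51 in WT CO and the lowest value of the column in WT AE. In KO it had 2.28 in CO and was again at the lowest value in AE. AC151971.2, a long intergenic non-coding RNA, had 1.23 in WT AE and -0.97 in WT CO, and 3.87 and 2.94 in KO. Gm26917 had 7.50 in WT CO and 6.47 in WT AE, a difference of 1.03, just past 1.

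Bglap3, related to osteocalcin, a protein of bone, had 1.87 in WT CO and 0.99 in WT AE, and 5.10 and 6.17 in KO. Of its 50-base words 11.5% occur in other genes, chiefly Bglap2. Trf, the iron carrier transferrin, had 3.41 in WT CO and 2.68 in WT AE, and 4.54 and 2.42 in KO, and 59.4% of its words occur in another gene, Gm20425.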
